A study of Mus musculus with 3 samples.

Results

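Dpt and Lum interstitial fibroblasts were the collagen-producing cells of the neonatal mouse testis in which the transcripts of Dpt, Agtr2, Lum and Clec3b outweighed those of a second stromal marker set. The rule found 160 of these cells among 14422 in 3 libraries. A cell belonged when its unique molecular identifiers (UMIs, tags that mark single captured transcripts) summed to at least 5 for Col1a1, Col1a2, Col3a1 and Dcn. It could hold at most 4 UMIs of the smooth muscle genes Acta2, Myh11 and Tagln, at most 5 of the steroid enzymes Cyp11a1, Cyp17a1 and Hsd3b1, and at most 2 of the Sertoli genes Amh, Sox9, Cldn11 and Inha. Dividing cells were set aside by fewer than 4 UMIs of Ube2c, Cenpf, Plk1 and Cenpa and fewer than 3 of Rrm2, Tk1, Clspn and Tyms. The sum of Dpt, Agtr2, Lum and Clec3b then had to reach 3 and to exceed 2 times the sum of Htra3, Vcam1, Smoc2 and Cyp26b1. The cells were thus chosen by the measured UMIs of these 30 genes, so their values are given below as a description and carry no test.

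Fibroblasts of loose connective tissue build the fibrous matrix between the working cells of an organ. They secrete fibrillar collagens, trim and crosslink them, and coat the fibrils with small proteoglycans that set fibril width. In the testis such cells lie in the interstitium, the space between the seminiferous tubules, together with fetal Leydig cells, vessels, macrophages and the stromal cells from which adult Leydig cells arise. Dpt encodes dermatopontin, a matrix protein that binds decorin and collagen. Lum encodes lumican, a small leucine-rich proteoglycan of collagen fibrils. Agtr2 encodes the type 2 receptor of angiotensin II, which is known from fetal mesenchyme. Clec3b encodes tetranectin, which binds the kringle region of plasminogen.

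The series comprised 1 library for each of 3 Cdk2 genotypes. Cdk2-Y15S males were homozygous for the YS allele, named for a change of a tyrosine of CDK2, a kinase of the cell cycle, to serine. Cdk2-HET males carried 1 YS and 1 wild-type allele, and Cdk2-WT males carried 2 wild-type alleles. All were untreated males at postnatal day 3 by 1 label, while the dissection protocol gives 3.5 days, and their mixed background joined B6(Cg)-Tyrc-2J/J with FVB/NJ. Testes without their capsule were dissociated enzymatically, with DNase I added to trypsin/EDTA, and transcripts with a poly(A) tail were captured by 10x Genomics chemistry. How many animals each library held is not given in the labels. With 1 library per genotype, no difference between genotypes has a replicate check, and intervals given for them cover counting error only.

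The libraries held 4403, 4958 and 5061 cells in Cdk2-Y15S, Cdk2-HET and Cdk2-WT, with 28651691, 32025077 and 30624473 UMIs. The fibroblasts contributed 442501, 197579 and 166438 of these UMIs, with medians of 5020.5, 5639 and 4456 UMIs and 2074.5, 2231 and 1892 genes per cell. Across the series, 87 barcodes occurred in a pair of libraries, which touched 174 cells and 2 of the fibroblasts, both from Cdk2-Y15S. No fibroblast was among the 248 cells that the doublet caller Scrublet marked. Cdk2 itself had 9, 6 and 7 UMIs in the fibroblasts of Cdk2-Y15S, Cdk2-HET and Cdk2-WT. A 3-prime tag does not read the changed codon, so this level checks no genotype label.

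The sequences shown here are windows upstream of the transcript starts of Dpt, the marker found in most of the fibroblasts, and of Postn and Epha3, which had the highest folds over the other stroma among called genes with at least 200 UMIs (below). Each runs from 150 to 21 bases before a RefSeq start on GRCm38.p6, reads 5′ to 3′ along the gene, and is in lower case with motif matches in capitals. Both strands were searched for the TATA box (TATAAA), an E box (CAGCTG), a nuclear receptor half-site (AGGTCA), the CCAAT box (CCAAT) and the GC box (GGGCGG). Dpt lies at chr1:164796513-164796642 on the plus strand, the first Postn start at chr3:54359117-54359246 and the second at chr3:54360957-54361086, both on the plus strand, and Epha3 at chr16:63864196-63864325 on the minus strand.
Dpt: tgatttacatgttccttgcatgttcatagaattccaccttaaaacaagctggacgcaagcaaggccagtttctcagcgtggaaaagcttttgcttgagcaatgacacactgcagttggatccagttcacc
Postn, first start: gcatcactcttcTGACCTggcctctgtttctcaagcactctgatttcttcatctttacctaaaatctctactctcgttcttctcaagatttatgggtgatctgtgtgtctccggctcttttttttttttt
Postn, second start: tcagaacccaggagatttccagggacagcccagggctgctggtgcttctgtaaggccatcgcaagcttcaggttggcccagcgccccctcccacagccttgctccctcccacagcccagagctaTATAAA
Epha3: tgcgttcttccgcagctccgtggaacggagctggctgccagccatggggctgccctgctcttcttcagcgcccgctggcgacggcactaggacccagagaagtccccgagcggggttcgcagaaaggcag
The second Postn window ended in the letters of the TATA box, which occurred in 6.91% of all 32851 windows of this length. Its first window held the nuclear receptor half-site on the other strand, as did 7.55% of all windows. The Dpt and Epha3 windows held none of the motifs searched, of which the E box occurred in 7.13%, the CCAAT box in 22.5% and the GC box in 25.1% of windows. These matches describe letters in the windows and no binding was measured.

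The 160 cells were spread over all libraries, with 86 in Cdk2-Y15S, 36 in Cdk2-HET and 38 in Cdk2-WT. They made up 1.95% of cells in Cdk2-Y15S (exact 95% binomial interval 1.57 to 2.41), 0.726% in Cdk2-HET (0.509 to 1.00) and 0.751% in Cdk2-WT (0.532 to 1.03). Of the cells that met the collagen rule and the exclusions, they were 6.22%, 3.00% and 3.44%, with intervals of 5.00 to 7.62, 2.11 to 4.12 and 2.44 to 4.69. The Cdk2-Y15S share lay above both others beyond counting error on either denominator. With cells thinned to 3000 UMIs before the rule, which evens out depth and leaves out shallower cells, the shares were 2.46%, 1.06% and 1.01%. With the Htra3 margin at 3 times the share was 0.840%, 0.403% and 0.494%, and the interval of Cdk2-Y15S (0.592 to 1.16) then overlapped those of Cdk2-HET (0.247 to 0.622) and Cdk2-WT (0.320 to 0.728). Without Dpt in the rule, the Cdk2-Y15S share of 0.886% (0.631 to 1.21) likewise overlapped Cdk2-HET, at 0.464% (0.294 to 0.695), and Cdk2-WT, at 0.454% (0.288 to 0.681). One library per genotype leaves the spread between animals unmeasured, so genotype and library cannot be told apart.

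Among the fibroblasts, 51 cells held all 4 markers, 58 held 3, 43 held 2 and 8 held 1. The marker sum per cell had a median of 10 (range 3 to 37) in Cdk2-Y15S, 15 (5 to 38) in Cdk2-HET and 9.5 (3 to 27) in Cdk2-WT. The opposing Htra3 sum had medians of 3, 5 and 2. At the edge of the rule, 8 cells had a marker sum of exactly 3, and 6 cells that met all other conditions had a sum of 2. A larger group stood just outside by the margin: 302 cells reached 3 and exceeded the Htra3 sum without doubling it, with a median marker sum of 9 and a median Htra3 sum of 6. On these sums, which the rule itself used, cells stood on both sides of its edges. With so few marker UMIs per cell, the sums cannot show whether the fibroblasts are a separate population.

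**Figure D1:**
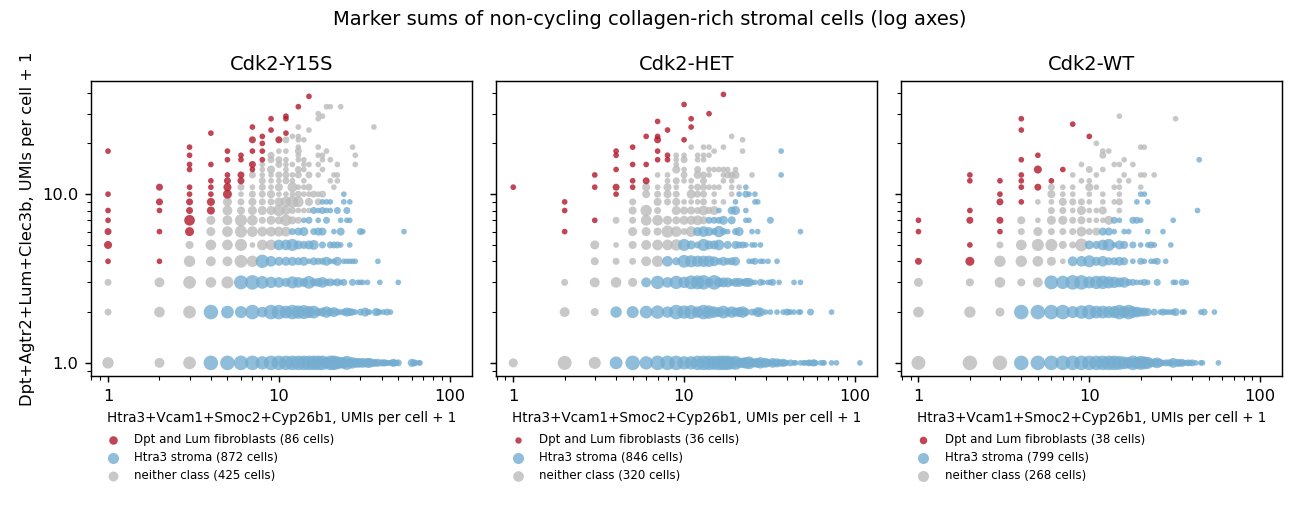
Dots show stromal cells by the summed UMIs of Htra3, Vcam1, Smoc2 and Cyp26b1 (across) and of Dpt, Agtr2, Lum and Clec3b (up), each plus 1 on log axes, in a panel for each of Cdk2-Y15S, Cdk2-HET and Cdk2-WT; larger dots stand for more cells. The 86, 36 and 38 fibroblasts (red) lie at the upper left, and grey cells of neither class fill the range between them and the Htra3 stroma (blue).

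Levels are given as CPM, the UMIs of a gene summed over the cells of a class in a library and expressed per 1000000 UMIs of that class and library. The population set beside the fibroblasts was the Htra3 stroma, defined with the same exclusions and the marker sums exchanged (872, 846 and 799 cells in Cdk2-Y15S, Cdk2-HET and Cdk2-WT). Dpt stood at 757, 658 and 643 CPM in the fibroblasts of Cdk2-Y15S, Cdk2-HET and Cdk2-WT, against 62.9, 70.3 and 69.3 CPM in the Htra3 stroma. Agtr2 stood at 757, 1129 and 739 CPM in the fibroblasts and at 96.3, 111 and 103 CPM in the Htra3 stroma. Lum had 490, 855 and 709 CPM in the fibroblasts and 21.8, 39.5 and 17.6 CPM in the Htra3 stroma. The rule set these gaps and also raised how often each marker was seen, although it required no single marker. As a description, Dpt had a UMI in 94.2%, 97.2% and 86.8% of fibroblasts and Clec3b in 52.3%, 69.4% and 34.2%. In Sertoli cells, at median depths of 5770.5, 5895 and 5768 UMIs, Dpt had a UMI in 1.4%, 0.620% and 0.856% of cells. Dcn, the decorin that dermatopontin binds, was a condition of the rule in both classes and reached 5037, 5446 and 4644 CPM in the fibroblasts against 2174, 2366 and 1972 CPM in the Htra3 stroma. Htra3 remained at 346, 380 and 174 CPM in the fibroblasts against 1309, 1332 and 1106 CPM, while Cyp26b1, which breaks down retinoic acid, had 2.26, 5.06 and 0 CPM against 263, 216 and 153 CPM.

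Markers of other cells were read in the fibroblasts next. The rule itself capped steroid, smooth muscle and Sertoli genes, so low levels of those lists were largely set by the choice of cells and check nothing. The fetal Leydig list summed to 6.78, 0 and 12.0 CPM in the fibroblasts of Cdk2-Y15S, Cdk2-HET and Cdk2-WT against 103, 50.6 and 23.2 CPM in the Htra3 stroma. Smooth muscle genes were not low: they summed to 536, 491 and 673 CPM in the fibroblasts against 394, 373 and 424 CPM in the Htra3 stroma. This sum was higher in the fibroblasts in each library, under the same cap for both classes. Sertoli genes summed to 395, 511 and 493 CPM against 529, 580 and 475 CPM, mostly from Ctsl. The lists below took no part in the rule. Of 7 pericyte markers, 4, 3 and 2 had a UMI in the fibroblasts, and they summed to 33.9, 50.6 and 36.0 CPM against 41.3, 49.99 and 50.2 CPM in the Htra3 stroma, while the defining Rgs5, Kcnj8 and Higd1b had no UMI in the fibroblasts. Of 8 mesothelial markers, 1, 1 and 2 had a UMI, and they summed to 18.1, 5.06 and 24.0 CPM against 9.02, 9.40 and 8.41 CPM, with Upk3b and Msln at 0 in both classes. Of 8 tendon and cartilage markers, 2, 1 and 3 had a UMI, and they summed to 13.6, 10.1 and 18.0 CPM against 15.7, 14.1 and 16.3 CPM, with Tnmd and Acan at 0 in the fibroblasts. The Schwann cell list summed to 172, 137 and 60.1 CPM against 194, 158 and 105 CPM, almost wholly from S100b in the fibroblasts, where Sox10 was at 0. Endothelial genes summed to 108, 142 and 114 CPM against 176, 180 and 165 CPM. The endothelial and Schwann sums were lower in the fibroblasts in each library, and the other 3 were not. The position of a cell in the tissue was not measured, so the word interstitial rests on the label. Some genes known from fibroblasts of other organs were sparse: Pi16 had 8, 1 and 1 UMIs in all fibroblasts of the 3 libraries, Ly6a had 1, 0 and 0, and Dpp4 and Thy1 had none. They were picked from a longer list whose other members differed. Of 16 genes of that list tested, 8 were higher than in the Htra3 stroma, Cd34 and Mfap5 among them, and 2 lower (below).

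The fibroblasts and the Htra3 stroma were then compared for genes that took no part in the rule. UMIs were summed per library and class and tested with edgeR's quasi-likelihood test with the library as a block. Of 9972 genes, 870 passed a Benjamini-Hochberg adjusted p of 0.05 (8.72%), 391 of them higher in the fibroblasts (3.92%) and 479 lower (4.80%). The lower genes include some that passed the filter on low counts through the Htra3 stroma alone (below), and their number is not given here. Without that filter, 304 of 16944 genes were higher and 559 lower. Scaling by totals alone changed the split to 608 higher and 390 lower. The gates drew on opposing marker sums, so genes that vary along with those markers from cell to cell differ by construction. The p-values set a difference against a spread between 3 libraries that the fit largely pooled over genes. A low p-value therefore does not show that the gene itself was steady in each library. Without the Cdk2-Y15S library, which holds most of the fibroblasts, 375 genes passed.

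The genes that rose most in the fibroblasts included those of matrix and cell surface proteins. They were picked among called genes with 1 sign in all 3 libraries, so a higher value within each library was set by the choice. Postn, periostin, a matricellular protein of collagen-rich tissue, had 194, 81.0 and 54.1 CPM in the fibroblasts of Cdk2-Y15S, Cdk2-HET and Cdk2-WT, against 20.8, 10.3 and 3.57 CPM in the Htra3 stroma. Every fibroblast value exceeded every Htra3 stroma value, and the fold was 3.14 ± 0.25 on the log2 scale (SE; edgeR quasi-likelihood test, Benjamini-Hochberg adjusted p 1.40e-16). Its windows are the pair shown above, of which 1 carried the TATA box letters. Epha3, a receptor of ephrins that guides cell contacts, had 65.5, 96.2 and 126 CPM in the fibroblasts against 11.1, 14.3 and 14.8 CPM in the Htra3 stroma, a log2 fold of 2.67 ± 0.27 (edgeR, Benjamini-Hochberg adjusted p 1.04e-12). The order of Epha3 over genotypes in the fibroblasts ran opposite to that of Postn.

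Crip1, a small LIM-domain protein, had 662, 521 and 619 CPM in the fibroblasts against 115, 80.1 and 157 CPM in the Htra3 stroma, and had the smallest SE of the 15 highest genes (log2 fold 2.30 ± 0.11, SE; edgeR, Benjamini-Hochberg adjusted p 8.18e-27). Mfap5, a microfibril protein of elastic fibres, had 307, 405 and 240 CPM against 63.6, 57.7 and 70.3 CPM (log2 fold 2.22 ± 0.14, SE). Qpct, which forms N-terminal pyroglutamate on secreted proteins, had 158, 197 and 144 CPM against 29.2, 31.4 and 45.6 CPM. Cd44, the hyaluronan receptor, was lower in Cdk2-Y15S fibroblasts, at 52.0 CPM, than in Cdk2-HET and Cdk2-WT fibroblasts, at 182 and 132 CPM. All of these lay above the Htra3 stroma, where Cd44 had 15.5, 25.4 and 37.7 CPM. The others of the 15 highest were Crip2, Vit, Fhl1, Mmp16, Adamtsl5, Tubb2b, Gpc6, Ndp and Pcdh7, with log2 folds of 2.27 for Crip2 to 1.73 for Pcdh7. Vit, vitrin, no longer passed without the Cdk2-Y15S library (log2 fold 1.09).

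Among the 15 genes with the lowest fitted folds, 6 had no UMI in any fibroblast. These 6 passed the filter on low counts through the Htra3 stroma alone, so their place among the lowest folds is a description. The Leydig hormone gene Insl3 had 82.6, 29.3 and 11.5 CPM in the Htra3 stroma of Cdk2-Y15S, Cdk2-HET and Cdk2-WT, which made it at least 11.6-fold lower in the fibroblasts at a floor of 3 counts over the group. Asb2, a substrate adaptor of a ubiquitin ligase, was at least 10.7-fold lower, and Bmp7, a bone morphogenetic protein, at least 6.55-fold lower. Myoc, Kif21b and Drc1 were at least 5.79-fold, 4.38-fold and 4.22-fold lower. Without the Cdk2-Y15S library, which holds most of the fibroblast UMIs, the bound was 2.57-fold for Insl3, 4.55-fold for Asb2, 2.65-fold for Bmp7, 2.21-fold for Myoc, 1.97-fold for Kif21b and 1.92-fold for Drc1. Gsta2, a glutathione transferase, had 18.1, 5.06 and 24.0 CPM in the fibroblasts against 133, 151 and 115 CPM in the Htra3 stroma, a log2 fold of -3.15 ± 0.28 (SE; edgeR, Benjamini-Hochberg adjusted p 1.27e-14). Its near-identical relative Gsta1 fell too, and reads could be split between them, so the share of each is uncertain. Fetal Leydig markers summed to 103, 51 and 23 CPM in the Htra3 stroma. That list includes Insl3 itself, so its order over the libraries is no separate observation. The part of Leydig transcripts in the Insl3 difference was not tested. Insl3 no longer passed with DESeq2 or without the library block.

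**Figure D2:**
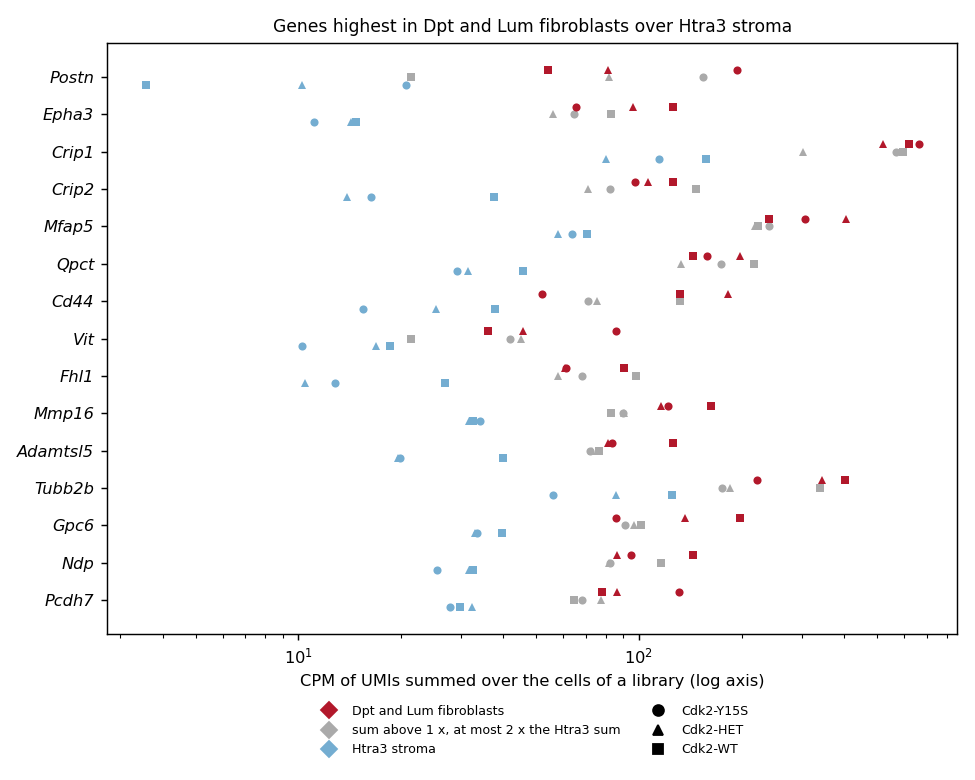
CPM on a log axis of the 15 genes highest in fibroblasts over Htra3 stroma, with a circle, triangle and square for Cdk2-Y15S, Cdk2-HET and Cdk2-WT. The fibroblast points (red) lie to the right of the Htra3 stroma points (blue) for each gene, which the choice of genes required within each library. The 302 cells just outside the rule (grey) lie between the red and blue points of their library for most of the genes. The choice of these cells by their marker sums, and of the genes, favoured such a place.

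The 302 cells just outside the rule fell between the classes for most of the 15 highest genes, in 11 of 15 for Cdk2-Y15S, 14 for Cdk2-HET and 12 for Cdk2-WT. Postn had 154, 81.5 and 21.4 CPM in these cells, and Mfap5 had 241, 219 and 223 CPM. For the 15 lowest genes the count was 11, 13 and 3. Some of the 15 lowest genes had no UMI in any fibroblast, so for these no cells could lie below the fibroblasts. By the marker sums that chose them, the 302 cells already stood between the classes, and the genes were picked for differing between the classes. A middle place was thus favoured by the choice of cells and genes and is given as a description.

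The lists that follow were tested gene by gene in the same fit, and members named for their fold were chosen after their values were seen. The median over all genes tested was -0.02 on the log2 scale, and 8.72% of genes passed. Over all genes, 375 of 10072 passed without the Cdk2-Y15S library and 640 of 10031 without the Cdk2-HET library. With DESeq2 413 of 9005 passed, and with thinned cells 542 of 8456. Scaling by totals alone gave 998 of 9972 and RLE factors 952 of 9972. List counts under these settings are to be read beside those numbers. Of 22 collagen genes outside the rule, 7 rose and 4 fell, with a median log2 fold of 0.33. Col12a1, a collagen that decorates fibrils, had 76.8, 101 and 132 CPM in the fibroblasts against 8.60, 7.05 and 12.2 CPM in the Htra3 stroma (log2 fold 3.32 ± 0.27, SE). The fibril-starting Col5a1 and Col5a2 rose by 1.02 and 0.96 on the log2 scale, while the basement membrane gene Col4a1 fell by 0.68. Without the Cdk2-Y15S library the collagen median was -0.02, with 5 genes higher and 3 lower.

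Of 19 enzymes and chaperones that mature collagen, 15 had folds above 0 and 4 below, and the 7 that passed were higher, with a median of 0.42 over the list. Loxl1, a crosslinking lysyl oxidase, had 371, 430 and 583 CPM in the fibroblasts against 140, 137 and 174 CPM in the Htra3 stroma, a log2 fold of 1.47 ± 0.11 (SE). Sparc, which binds collagen, had 4084, 4044 and 3287 CPM against 2201, 1951 and 1738 CPM. Loxl2, Lox, P4ha2, Fkbp10 and Serpinh1 were the other genes that passed. Without the Cdk2-Y15S library, 3 passed. Of 18 matrix glycoproteins, 7 rose and 2 fell, with a median of 0.55. Fn1, fibronectin, stood at 560, 511 and 433 CPM in the fibroblasts against 167, 164 and 141 CPM in the Htra3 stroma (log2 fold 1.58 ± 0.11, SE). Of 17 elastic fibre genes, 6 rose and 3 fell, with Fbn1, fibrillin, higher by 0.97 and Mfap2 by 0.55. With DESeq2, 5 of the elastic fibre genes were higher and 0 lower, and without the Cdk2-Y15S library 4 and 0.

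Small leucine-rich proteoglycans other than Lum and Dcn gave 1 call in 5, which was Aspn, asporin. It had 54.2, 127 and 222 CPM in the fibroblasts against 25.8, 37.6 and 69.6 CPM in the Htra3 stroma, higher in each library by a log2 fold of 1.40 ± 0.21 (SE), and the classes shared the order of the genotypes. Of 22 matrix proteases and inhibitors, 8 rose and 1 fell although the median was -0.10, and without the Cdk2-Y15S library 5 were higher and 0 lower. Mmp16, a membrane-bound matrix protease, had 122, 116 and 162 CPM against 34.2, 31.6 and 32.6 CPM. Genes described in fibroblasts of other tissues were partly shared: of 16 tested, 8 rose and 2 fell, with a median of 0.62. Cd34, a sialomucin of stromal progenitors, had 777, 602 and 547 CPM in the fibroblasts against 432, 380 and 371 CPM in the Htra3 stroma. Pdgfra, the receptor that marks most stroma, fell by 0.58 on the log2 scale.

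For the angiotensin system, of which Agtr2 is the receptor in the rule, 6 other genes could be tested and 1 passed, the angiotensinase Enpep. It had no UMI in the fibroblasts and 8.18, 10.5 and 7.39 CPM in the Htra3 stroma of the 3 libraries, so it passed the filter through the Htra3 stroma alone. No gene of this list passed with DESeq2, with thinned cells, or without the Cdk2-Y15S or the Cdk2-HET library. Of 24 genes of the TGF-beta and BMP pathways, 3 rose and 5 fell. The ligand Tgfb2 rose by 1.29 and its receptor Tgfbr2 by 1.18, while the ligand Bmp4 and the target genes Id1, Id2 and Id3 fell. The ligand Bmp7 was also counted as lower, but it had no UMI in the fibroblasts and passed the filter through the Htra3 stroma alone. Id1 stood at 240, 167 and 246 CPM in the fibroblasts against 649, 598 and 430 CPM in the Htra3 stroma (log2 fold -1.49 ± 0.12, SE). The hedgehog receptor and target Ptch1 had 83.6, 91.1 and 84.1 CPM against 206, 172 and 185 CPM, and it and Pdgfra were the 2 genes to pass of 15 hedgehog and PDGF genes, both lower. When scaled by totals alone that list had 2 genes higher and 2 lower. Of 14 Wnt genes, the ligand Wnt2 and the Wnt enhancer Rspo1 rose, by 2.65 and 0.92, and the inhibitor Sfrp1 fell.

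Of 13 retinoid genes, 3 rose and 4 fell. The retinal dehydrogenase Aldh1a2 had 31.6, 40.5 and 96.1 CPM in the fibroblasts against 9.02, 8.97 and 17.1 CPM in the Htra3 stroma, a log2 fold of 2.05 ± 0.33 (SE). Its relative Aldh1a1 had 24.9, 15.2 and 12.0 CPM against 119, 96.4 and 77.5 CPM, a log2 fold of -2.50 ± 0.28 (SE). The retinol receptor gene Stra6 fell by 2.99. Of 32 regulators of stroma and Leydig progenitors, 2 rose and 6 fell. Twist1 was higher by 0.95, and Ptch1, Osr2, Tcf21, Pdgfra and Hes1 were among those that fell. Tcf21, a transcription factor of gonadal interstitial progenitors, had 208, 116 and 126 CPM in the fibroblasts against 289, 314 and 178 CPM in the Htra3 stroma.

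Of 8 chemokine and cytokine genes, Cxcl12 and Kitl rose and Cxcl1 fell. Cxcl12, a chemokine that holds progenitors in their niche, had 1910, 2045 and 1748 CPM in the fibroblasts against 1024, 1054 and 1233 CPM in the Htra3 stroma. Kitl, the ligand of the Kit receptor, was not higher in every library, with 42.9, 35.4 and 6.01 CPM in the fibroblasts against 12.8, 12.0 and 16.1 CPM. Of 8 complement genes, 3 rose and 2 fell, with the complement shield Cd55 higher by 2.39. Among 14 guidance genes, 4 rose, Epha3, Epha7, Nrp2 and Efna5, and 2 fell, Slit3 and Sema3c. Insulin-like growth factor genes gave 2 higher, Igf1 and Igfbp3, and 2 lower, Igfbp7 and H19, of 14. Without the Cdk2-Y15S library the guidance list had 2 higher and 0 lower, and the insulin-like growth factor list 0 higher and 2 lower. Guidance had 2 higher and 1 lower without the Cdk2-HET library and 1 of each with DESeq2, and with RLE factors the insulin-like growth factor list had 2 higher and 4 lower. Also without the Cdk2-Y15S library, the TGF-beta and BMP list had 2 higher and 3 lower, and the Wnt and the chemokine lists 1 of each.

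Immediate early genes, which dissociation of tissue can induce, leaned lower: of 22 immediate early and heat shock genes, 3 rose and 9 fell. Nr4a1 had 138, 70.9 and 84.1 CPM in the fibroblasts against 348, 289 and 276 CPM in the Htra3 stroma, and Btg2 had 411, 410 and 679 CPM against 924, 840 and 1045 CPM. Hspa1a, Hsp90aa1 and Klf6 were higher, although Hspa1a has a near-identical copy and its level is uncertain. In Cdk2-WT, Hspa1a had 18.0 CPM in the fibroblasts against 27.3 CPM in the Htra3 stroma. Scaled by totals alone, the list had 6 higher and 7 lower, and without the Cdk2-Y15S library 1 higher and 5 lower. Glycolysis gave 1 lower gene of 19, Pkm, and the cell cycle 1 higher of 18, Ccnd2, and neither list had a call without the Cdk2-Y15S library or with DESeq2. Of 13 mitochondrially encoded genes, mt-Co1 and mt-Co3 were lower, and neither passed with DESeq2.

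**Figure D3:**
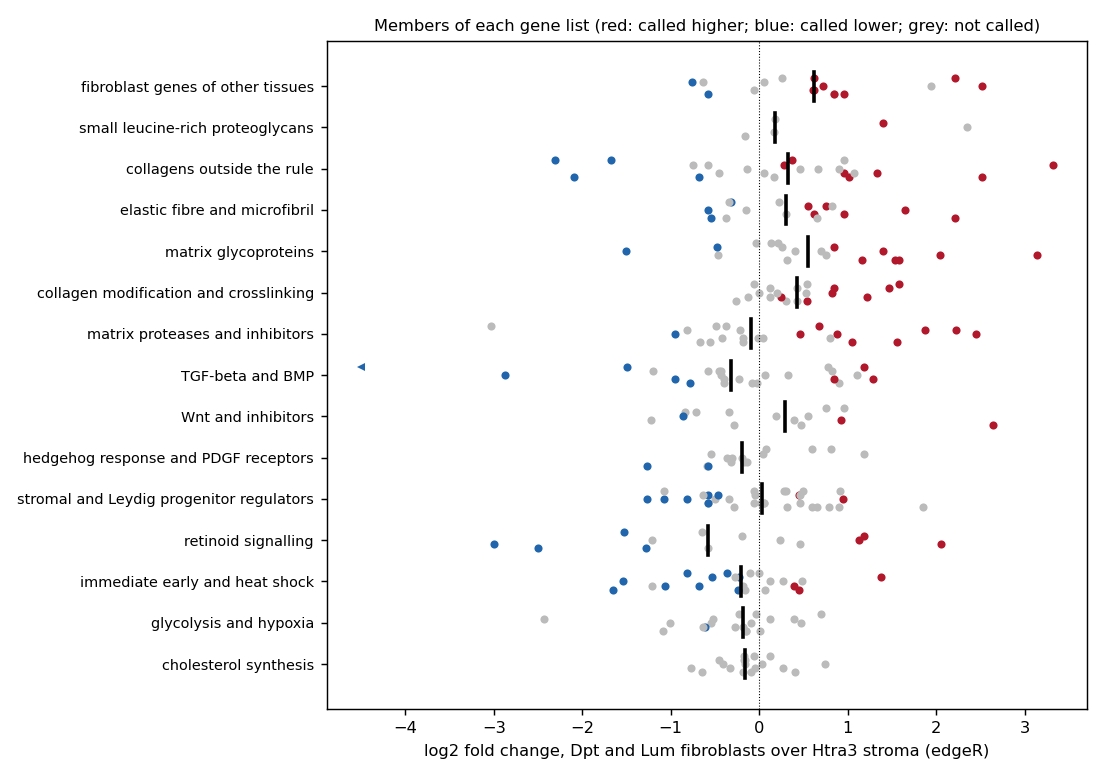
Log2 fold of fibroblasts over Htra3 stroma for members of 15 gene lists, 1 point per gene tested, red or blue where it passed as higher or lower and grey otherwise. Black bars are list medians. The triangle marks Bmp7, which had no UMI in the fibroblasts and lies off the axis. Collagen maturation genes that passed all lie above 0, and 9 of the 12 immediate early and heat shock genes that passed lie below it.

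Few genes differed between the genotypes in the fibroblasts by a fold rule. A gene was counted when the CPM of 2 libraries differed at least 2-fold and it had at least 100 UMIs over both. Of 915 genes with that depth, 12 passed for Cdk2-Y15S over Cdk2-WT (1.31%), 9 higher (0.984%) and 3 lower (0.328%). For Cdk2-HET over Cdk2-WT 4 of 526 passed (0.760%), 2 higher (0.380%) and 2 lower (0.380%), and for Cdk2-Y15S over Cdk2-HET 8 of 972 (0.823%), 6 higher (0.617%) and 2 lower (0.206%). With cells thinned to 3000 UMIs, which also lowers how many genes reach 100 UMIs, these counts were 5, 2 and 5. The 3 comparisons share their libraries. Genes named here with fewer than 200 UMIs were chosen after their values were seen.

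Nrk, a kinase of the germinal centre kinase family, stood above Cdk2-WT. It had 531, 334 and 240 CPM in Cdk2-Y15S, Cdk2-HET and Cdk2-WT fibroblasts, a log2 ratio of Cdk2-Y15S over Cdk2-WT of 1.13 (counting interval 0.66 to 1.67). The Htra3 stroma had 465, 419 and 295 CPM in the same order. Sct, secretin, had 359, 369 and 150 CPM in the fibroblasts, with a ratio of 1.23 (0.64 to 1.93), and 449, 381 and 268 CPM in the Htra3 stroma. Cxcl1, a chemokine for neutrophils, had 355, 137 and 156 CPM, a ratio of 1.16 (0.58 to 1.84). Both wild-type and heterozygous fibroblasts were low for Cxcl1, while Cdk2-WT alone was low for Sct. Gstm5, Atp2b1, Slc1a3 and C1qtnf6 were also past 2-fold, with log2 ratios of 1.05 for Slc1a3 to 1.20 for C1qtnf6.

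Hmox1, heme oxygenase, showed the highest ratio of Cdk2-Y15S over Cdk2-WT, at 267, 218 and 12.0 CPM in Cdk2-Y15S, Cdk2-HET and Cdk2-WT. However, most of its UMIs in Cdk2-Y15S and in Cdk2-HET came from 1 cell each. Of its 118 UMIs in Cdk2-Y15S, 90 came from 1 cell, and of 43 in Cdk2-HET, 39 came from 1 cell. It also passed as higher in the fibroblasts than in the Htra3 stroma, where it had 57.1, 18.8 and 15.3 CPM, and the same 2 cells carry most of that fibroblast sum.

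Genes below Cdk2-WT were Cnn2, Idh2 and Arhgap20. Cnn2, a calponin of the actin cytoskeleton, had 181, 238 and 439 CPM in Cdk2-Y15S, Cdk2-HET and Cdk2-WT fibroblasts, a log2 ratio of -1.28 (-1.75 to -0.80). The order was the same in the Htra3 stroma, at 137, 143 and 223 CPM. Peritubular myoid cells, where Cnn2 had 873, 883 and 862 CPM, showed no such order. The myoid list in the fibroblasts was also highest in Cdk2-WT, at 673 CPM against 536 and 491 CPM in Cdk2-Y15S and Cdk2-HET, and its part in the Cnn2 values was not tested. Idh2 had 149, 278 and 324 CPM and Arhgap20 145, 218 and 300 CPM in the fibroblasts.

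In the heterozygote, Cdkn1c, an inhibitor of cyclin-dependent kinases, stood above both others, with 554, 840 and 360 CPM in Cdk2-Y15S, Cdk2-HET and Cdk2-WT fibroblasts and a log2 ratio of Cdk2-HET over Cdk2-WT of 1.21 (0.79 to 1.67). The Htra3 stroma had 434, 524 and 371 CPM. Ifitm1, an interferon-induced membrane protein, had 549, 375 and 907 CPM, a ratio of -1.27 (-1.70 to -0.87), and Ifitm3 had 310, 137 and 391 CPM. Ifitm genes resemble each other, so reads between them may be split. Postn was past 2-fold for Cdk2-Y15S over Cdk2-HET, with a ratio of 1.23 (0.48 to 2.13) from 86 and 16 UMIs.

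The ribosomal protein genes Rpl29 and Rpl21 and the related entries Gm10320 and Gm10709 shifted by library in all 4 classes measured. Rpl29 had 196, 6 and 4 UMIs in Cdk2-Y15S, Cdk2-HET and Cdk2-WT fibroblasts, a log2 ratio of Cdk2-Y15S over Cdk2-WT of 4.04, with 4.16, 4.20 and 4.21 in the Htra3 stroma, the myoid cells and the Sertoli cells. Rpl21 had 305, 10 and 161 UMIs, a ratio of Cdk2-HET over Cdk2-WT of -4.19, with -4.64, -4.47 and -4.65 in those classes. Such genes have many near-identical copies in the genome, so their values are uncertain.

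**Figure D4:**
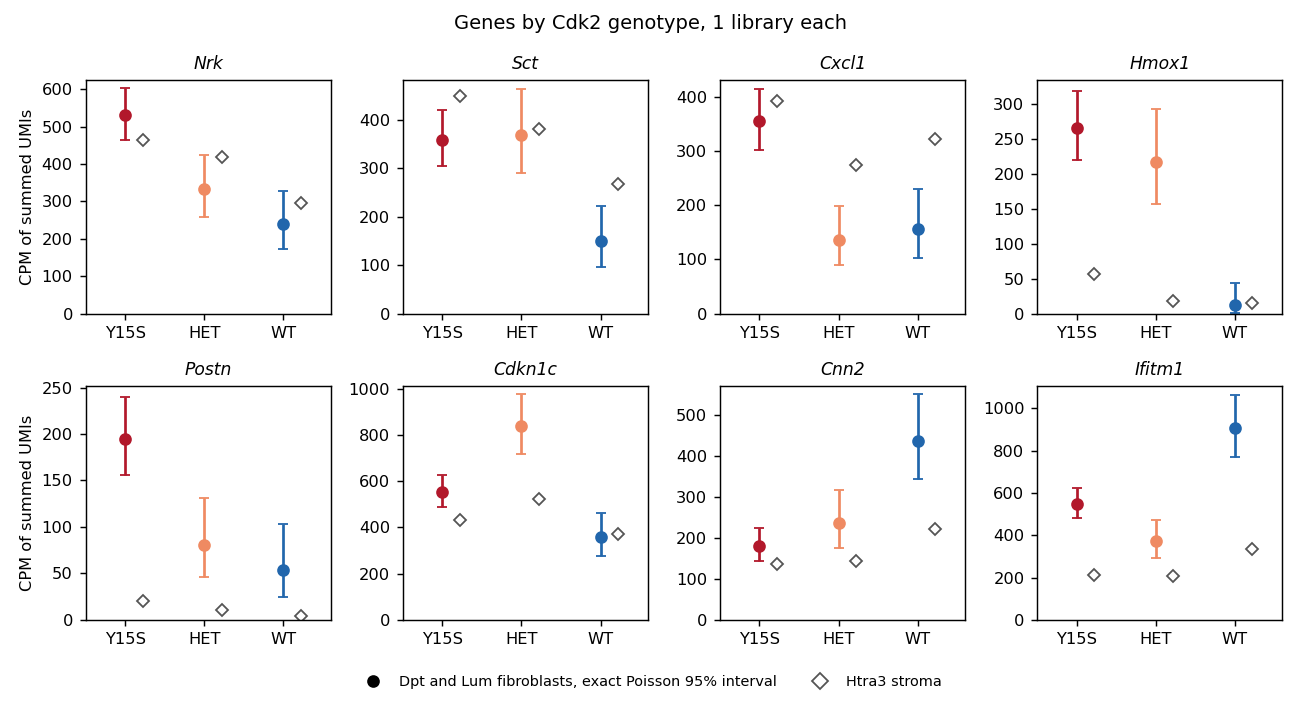
CPM of 8 genes past 2-fold between genotypes, with filled points for the fibroblasts of Cdk2-Y15S, Cdk2-HET and Cdk2-WT, bars for exact 95% Poisson intervals of the count, and open diamonds for the Htra3 stroma. Nrk and Sct are higher in Cdk2-Y15S than in Cdk2-WT and Cnn2 is lower, in both classes, and each point is a single library.

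Over the gene lists, at 20 UMIs or more over the 2 libraries, 8.24% of 4245 genes were past 2-fold for Cdk2-Y15S over Cdk2-WT (4.24% higher) and the median log2 ratio was -0.03. Collagens outside the rule had a median of 0.29, with 10 of 12 above 0 and 1, Col15a1, past 2-fold on 18 and 2 UMIs in Cdk2-Y15S and Cdk2-WT. With cells thinned to 3000 UMIs that median was 0.04. The collagens of the rule, which helped to choose the cells and support nothing, are given as values. Col1a1 had 3797, 2991 and 2265 CPM in Cdk2-Y15S, Cdk2-HET and Cdk2-WT fibroblasts and 1617, 1580 and 1076 CPM in the Htra3 stroma. Col3a1 had 3668, 3396 and 1989 CPM in the fibroblasts and 1686, 1717 and 1128 CPM in the Htra3 stroma. The matrix glycoproteins had a median of 0.31, with Postn and Vit past 2-fold of 15 measured. Aspn ran the other way, with a ratio of -2.02 (-2.84 to -1.26) and -1.43 in the Htra3 stroma, as did the microfibril gene Mfap2, at 915, 1179 and 1616 CPM (ratio -0.82, interval -1.05 to -0.59). Of 15 proteases and inhibitors, 1 was past 2-fold higher and 3 past 2-fold lower, which were Timp3, Mmp2 and Mmp11. Of 20 immediate early and heat shock genes, Hspa1a was the 1 past 2-fold, on 28, 9 and 3 UMIs. Igfbp2 had 0, 5 and 22 UMIs, of which 9 in Cdk2-WT came from 1 cell.

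For Cdk2-HET over Cdk2-WT, 6.45% of 2822 genes with 20 UMIs were past 2-fold (3.58% higher and 2.87% lower), and the list medians lay near the overall -0.02 for collagens (0.04) and elastic fibre genes (-0.05). Immediate early genes had a median of -0.26, with 12 of 18 below 0 and none past 2-fold. Cholesterol synthesis genes had a median of 0.22, and Hmgcs1 and Fdft1 were 2 of 7 past 2-fold. For Cdk2-Y15S over Cdk2-HET, 6.86% of 4389 genes were past 2-fold (3.85% higher and 3.01% lower), and the overall median was -0.03. All 10 cholesterol genes measured lay below 0, with a median of -0.56, and 2 of them, Fdft1 and Hmgcs1, were past 2-fold. The share of all genes below 0 is not given here.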

How the data were processed

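The deposited matrix holds counts: the authors gave whole UMIs for 27998 genes in 14422 cells, with the library of each cell in its barcode. The submitters' processing notes name Cell Ranger 2.1.0, the build mm10 and Seurat, without their roles. The gene annotation and the way cells were called are not stated in the labels. The members and lists were chosen with earlier results of these data known.

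UMIs were summed per library and class. Classes were compared with edgeR 4.0.16 (R 4.3.3; quasi-likelihood test, TMM factors, filterByExpr, library as a block, rule genes left out; the SE is the log2 fold over the square root of F), and the code was tested on simulated data. The block was used because both classes come from the same library; deviations of the classes from their means correlated within libraries by 0.659, 0.454 and 0.512 in Cdk2-Y15S, Cdk2-HET and Cdk2-WT over 1230 genes. The p-values rest on a spread between these 3 libraries that was largely pooled over genes (66.2 degrees of freedom in the main fit). The number of animals in each library is not given in the labels. Genotypes were compared without a test, as log2 ratios of CPM with 0.5 UMIs added and conditional exact binomial 95% intervals, which cover counting error only. No cell was removed. Doublets were called by Scrublet (scanpy 1.11.5, expected rate 6%) and left out only as an alternative, as were cells with fewer than 500 genes or over 10% mitochondrial UMIs and genes at other UMI minimums.

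The text names the rule genes and Cdk2. It names, among genes with 200 UMIs, the 10 highest and 10 lowest in each genotype comparison and the 15 highest and 15 lowest class folds with 1 sign in 3 libraries, and of each list the 3 highest and 3 lowest ratios of Cdk2-Y15S over Cdk2-WT. Some of these are left out, and others named were chosen after their values were seen. Sequences are RefSeq's on GRCm38.p6. A few genes of the lists are counted but not reported here by name.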

Additional observations from a re-analysis of the deposited data

Results flagged for a closer look

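For 9 genes the difference between genotypes ran one way in the fibroblasts and the opposite way in the Htra3 stroma, with both counting intervals away from 0. With 1 library per genotype, these differences between the classes were not tested. The number of genes searched is not given here, so the count does not say how common such reversals were. For Cdk2-Y15S over Cdk2-WT, the log2 ratio of the heat shock gene Hspa1a was 1.61 in the fibroblasts (28 and 3 UMIs) and -0.89 in the Htra3 stroma. Igfbp6, which binds insulin-like growth factor, had ratios of 0.39 and -0.15. The small GTPase genes Rap1b and Rhob had 0.87 and 0.56 in the fibroblasts, against -0.18 and -0.31 in the Htra3 stroma. For Cdk2-HET over Cdk2-WT, the chemokine gene Cxcl12 had 0.23 in the fibroblasts and -0.23 in the Htra3 stroma. Hmgcs1, of cholesterol synthesis, had 1.43 and -0.25, from 33 and 10 UMIs in Cdk2-HET and Cdk2-WT fibroblasts. The microfibril gene Mfap5 had 0.74 and -0.29, Pdlim3 had 0.46 and -0.12, and Prss35 had 0.90 and -0.13.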

How the results depend on the processing

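The number of genes that differed between fibroblasts and Htra3 stroma was 413 with DESeq2, 561 with no replicate block and 542 with cells thinned to 3000 UMIs, and 375 to 840 when 1 library was left out, against 870. Scaling by totals, RLE factors, no filter, the cell filters and a marker sum of 4 kept the count within 1.5 times. Genes past 2-fold numbered 5, 49 and 2 for Cdk2-Y15S over Cdk2-WT (thinned, at least 50 UMIs, at least 200 UMIs), 2, 17 and 2 for Cdk2-HET over Cdk2-WT, and 5, 36 and 3 between Cdk2-Y15S and Cdk2-HET. Each of these settings also changed how many genes had the depth to be counted. For Cdk2-Y15S, Cdk2-HET and Cdk2-WT, the share of fibroblasts was 5.16%, 2.62% and 2.07% with a marker sum above 1 times the Htra3 sum, 0.840%, 0.403% and 0.494% above 3 times, and 6.22%, 3.00% and 3.44% of stromal cells. Thinned before the rule it was 2.46%, 1.06% and 1.01%. With a marker left out, an alternative chosen after seeing the data, it was 0.886%, 0.464% and 0.454% without Dpt, 0.977%, 0.363% and 0.474% without Agtr2, 1.36%, 0.504% and 0.474% without Lum, and 1.52%, 0.565% and 0.672% without Clec3b. Of the main counts and shares under other settings, 34 moved, by more than 1.5 times or out of the main interval, and 41 did not. Of named genes in the class test, 13 values no longer passed and 347 kept direction and call. Of genotype values, 10 moved out of the counting interval of the main value and 1835 did not. Most settings reuse many of the same counts. Of list medians 19 moved and 559 did not. Where a count or share moved, the cause was not tested beyond the lower depth and fewer cells that an alternative itself sets. With 1 library per genotype, more depth would not separate genotype from library. At the depth reached, 38 Cdk2-WT fibroblasts gave 166438 UMIs, where 3 UMIs equal 18.0 CPM.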
